A study of Mus musculus with 4 samples.

Results

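The genes of the Piwi proteins and of the factors that make their small RNAs were followed in mouse embryonic stem cells (ESCs) given lactate. The 10 genes, Piwil2, Piwil4, Mov10l1, Ddx4, Fkbp6, Asz1, Pld6, Mael, Gtsf1 and Henmt1, were taken by name out of the 55335 genes of the count table. All 10 had reads in every library, and 9 passed the filter on low counts and were tested. Fkbp6 rose 2.06-fold and was the single gene of the group to pass the test. Mov10l1, Asz1, Ddx4, Piwil2, Mael and Gtsf1 had 1.47 to 1.94 times as much RNA in the lactate libraries, with adjusted p-values above 0.05 in the test without a replicate term. Piwil4 and Pld6 had changes near their standard errors, and Henmt1 had at most 11 reads.

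Piwi proteins are the germline branch of the Argonaute family. They bind piRNAs, small RNAs cut from long single-stranded precursors, and use them as guides to find transcripts of transposable elements, above all L1 and IAP in the mouse male germline. The precursors are brought to the mitochondrial surface and to the nuage, a granule of germ cells, where helicases, a nuclease, anchoring proteins and a chaperone turn them into loaded Piwi complexes, and in fetal male germ cells the pathway directs DNA methylation to these elements. Most of its genes are silenced outside the germline, in ESCs partly through DNA methylation and through PRC1.6, a repressor complex whose subunits MGA and MAX recognise the E-box CACGTG.

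The study used RNA-seq to ask how added lactate altered the ESC transcriptome. The cells were AB2.2, a single mouse ESC line, grown on mouse embryonic fibroblast feeders. The medium of both groups held fetal bovine serum at 15%, leukemia inhibitory factor at 1000 U/ml and 2 inhibitors that hold ESCs in the naive state, 3 µM CHIR99021 against GSK3 and 1 µM PD0325901 against MEK. The lactate group, 2 libraries, received 50 mM lactate for 24 h, and the control group, also 2 libraries, is labelled only as control. The labels do not say whether the libraries of a group came from separate cultures, so the p-values measure the spread between these libraries, which may be technical. Feeder cells were part of the culture, and no removal is described. In bulk RNA, more cells of a type and more RNA per cell cannot be told apart.

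The libraries held 18067562 to 19077885 reads in genes. Mitochondrial transcripts took 5.48% and 5.72% of the gene reads in replicate 1 of control and lactate and 2.43% and 2.82% in replicate 2, a difference that followed the replicate number and not the treatment. All 8 ESC markers examined, Pou5f1 and Nanog among them, had 3817 to 25492 reads in each library, and their summed level was 5151 to 5168 CPM in the control and 5536 to 5563 CPM in the lactate libraries, where CPM are read counts scaled to a common library size. A gene was called when edgeR's quasi-likelihood test gave a Benjamini-Hochberg adjusted p-value under 0.05 over the 18661 genes tested and the change exceeded 2-fold. By this rule lactate left 0.552% of genes called higher and 0.348% called lower. All genes together had a median log2 fold change of 0.01. Of the 9 Piwi pathway genes tested, 1 was called higher and 0 lower. Of the ESC markers 0 were called by edgeR or DESeq2. Sox2, Klf4 and Zfp42 had an unadjusted p-value under 0.05 in edgeR on the higher side, against 11.7% of all genes.

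The other values of the group are given by their direction. Each of the 9 had at least 32 reads in every library, so none entered the test through the lactate libraries alone. An unadjusted p-value under 0.05 was reached by 7 of the 9 on the higher side and by 0 on the lower side, against 11.7% and 11.4% of all genes. The groups did not overlap in 8 of the 9, each with lactate above control, and in 0 with lactate below, against 27.0% and 25.9% of all genes. The median log2 fold change of the 9 was 0.65, with a range from −0.27 to 1.04. The summed level of all 10 was 79.6 and 86.3 CPM in the control, and 140.1 and 141.7 CPM with lactate. With 2 libraries against 2, a two-sided exact permutation test of a single value cannot give a p below 0.333.

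**Figure D1:**
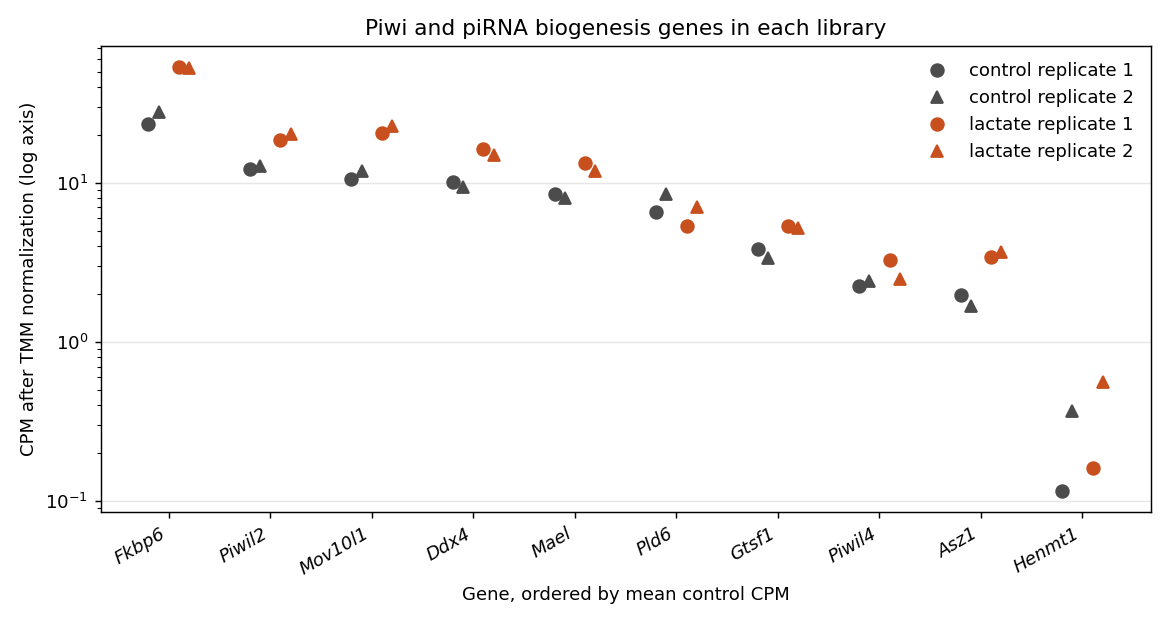
Level of each of the 10 genes in each library, as CPM after TMM normalization on a log axis, with genes ordered by their mean in the control libraries. The lactate points lie above the control points in 8 of the 9 tested genes, while those of Pld6 overlap, and Henmt1 lies below 1 CPM in every library.

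The Piwi genes themselves differed from each other in their change. Piwil2 (GRCm38, chr14:70372477-70429383, minus strand, 24 exon blocks) encodes MILI, the Piwi protein that cuts transposon RNA and starts the amplification of piRNAs. It had 210 and 241 control reads against 348 and 401 lactate reads, so the groups did not overlap. The mean went from 12.4 ± 0.395 to 19.5 ± 1.14 CPM (SD, n = 2), and edgeR gave a log2 fold change of 0.65 ± 0.16 at an adjusted p-value of 0.0917. Here and throughout, the error after a log2 fold change is its standard error, derived from the change and the F statistic of edgeR's test. Piwil4 (chr9:14696230-14740733, minus strand) encodes MIWI2, the nuclear Piwi protein that directs DNA methylation to transposons in fetal male germ cells. Its reads were 39 and 46 under control conditions and 61 and 49 with lactate. In these counts lactate replicate 1 alone stood clear of the other libraries, and the log2 fold change of 0.30 ± 0.26 (adjusted p = 0.539, edgeR) became 0.06 without it. The other quantification, given below, separated the groups of Piwil4 more clearly. The exons of Piwil4 share 137 bases with Gm10706, an antisense gene. The strand setting of the counting is not given in the sources used here, so reads of the 2 genes may not have been told apart. The third mouse Piwi gene, Piwil1, which encodes the MIWI of later spermatogenesis, had 34, 37, 25 and 32 reads in control 1, control 2, lactate 1 and lactate 2. Its log2 fold change was −0.40 ± 0.26, with an adjusted p-value of 0.42 (edgeR).

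Both RNA helicase genes had more reads in each lactate library. Mov10l1 (chr15:88982909-89055152, plus strand) encodes the helicase that binds piRNA precursors and feeds them to the nuclease. It had 183 and 224 control reads against 385 and 450 lactate reads, and in reads the lowest lactate value was well above the highest control value. With 11.2 ± 0.865 CPM in the control and 21.8 ± 1.48 in the lactate libraries, its log2 fold change of 0.96 ± 0.17 stood just short of 2-fold at an adjusted p-value of 0.0553 (edgeR). DESeq2 gave an adjusted p-value of 0.00933 and a change that was also under 2-fold. Ddx4 (chr13:112598333-112652475, minus strand) encodes the mouse vasa homologue, a nuage helicase used widely as a germ cell marker. Its reads numbered 174 and 179 under control conditions and 303 and 297 with lactate, a tight pair in each group. The log2 fold change was 0.69 ± 0.17 and the adjusted p-value 0.0903 (edgeR).

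Fkbp6 (chr5:135291704-135350044, minus strand, 10 exon blocks) had the largest log2 fold change of the group. It encodes an inactive member of the FKBP prolyl isomerases that acts with HSP90 when piRNAs are loaded into Piwi proteins. It had 408 and 530 control reads against 992 and 1041 lactate reads. The control libraries differed from each other more than the lactate libraries did, and no control value came near a lactate value. Fkbp6 rose, with a control mean of 25.8 ± 3.07 CPM and a lactate mean of 53.1 ± 0.422 CPM (SD, n = 2), and its log2 fold change was 1.04 ± 0.15 at an adjusted p-value of 0.0467 (edgeR). Both values were close to the limits of the call rule. Without control replicate 1, the lower of the control values, the log2 fold change was 0.91, the adjusted p-value was 0.138 and the call was lost. Without control replicate 2, lactate replicate 1 or lactate replicate 2 the gene was called. DESeq2 also called it, while RSEM expected counts gave a log2 fold change of 1.03 at an adjusted p-value of 0.0588 (edgeR).

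The mitochondrial factors of the pathway did not share one pattern. Asz1 (chr6:18050964-18109061, minus strand) encodes GASZ, which anchors the processing machinery at the outer mitochondrial membrane. It had 34 and 32 control reads against 64 and 72 lactate reads, which gave a log2 fold change of 0.96 ± 0.24 at an adjusted p-value of 0.0936 (edgeR). In these counts the size of this change matched that of Mov10l1, with fewer reads and a wider error. RSEM expected counts gave a log2 fold change of 0.68 for Asz1 (adjusted p = 0.269, edgeR) and 0.92 for Mov10l1 (adjusted p = 0.0965, edgeR). Pld6 (chr11:59783897-59787645, minus strand) encodes MitoPLD or Zucchini, the nuclease of the outer mitochondrial membrane that cuts the precursors and that also has a role in lipid signalling at mitochondria. Its reads were 113 and 161 under control conditions and 100 and 139 with lactate. The groups overlapped, and Pld6 was the only one of the 9 tested genes with a negative log2 fold change, −0.27 ± 0.24 (adjusted p = 0.542, edgeR). This value was −0.08 without control replicate 2, −0.12 without lactate replicate 1, −0.47 without control replicate 1 and −0.49 without lactate replicate 2.

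Mael and Gtsf1, which encode cofactors of the silencing step, had similar changes in the count table. Mael (chr1:166201201-166238747, minus strand) encodes Maelstrom, a nuage protein needed for transposon silencing in the male germline. It had 148 and 153 control reads against 249 and 234 lactate reads, a log2 fold change of 0.60 ± 0.18 at an adjusted p-value of 0.125 (edgeR). Gtsf1 (chr15:103402405-103430470, minus strand) encodes a small zinc finger protein that aids the cleavage of targets by Piwi proteins. Its reads were 66 and 64 under control conditions and 100 and 102 with lactate, and the log2 fold change was 0.55 ± 0.21 (adjusted p = 0.185, edgeR). The groups did not overlap in these counts.

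The higher counts of Gtsf1 with lactate had no counterpart in the other quantification. RSEM, which shares reads out among transcripts, assigned 34 and 35 reads to Gtsf1 in the control, and 34 and 43 with lactate, and the log2 fold change from these was 0.06 (adjusted p = 0.927, edgeR). These were 51.5% and 54.7% of its counted reads in the control, and 34.0% and 42.2% with lactate, against 86.2% to 87.9% for all genes together. The reason for the difference was not tested. For Fkbp6 the share was 84.3% to 86.6% in the 4 libraries, close to that of all genes. For Piwil4 it was 50% to 69.4%, and RSEM assigned it 22 and 23 reads in the control and 35 and 34 with lactate. The log2 fold change of Piwil4 from these was 0.52 (adjusted p = 0.335, edgeR).

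Henmt1 (chr3:108939873-108960774, plus strand) encodes the methyltransferase that protects the 3′ end of finished piRNAs. It had 2 and 7 control reads against 3 and 11 lactate reads, was left out by the filter on low counts and is given no fold change. In both groups replicate 2 was the higher library. Its exons share 392 bases with Gm9857 on the opposite strand, so part of these few reads may belong to that gene.

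**Figure D2:**
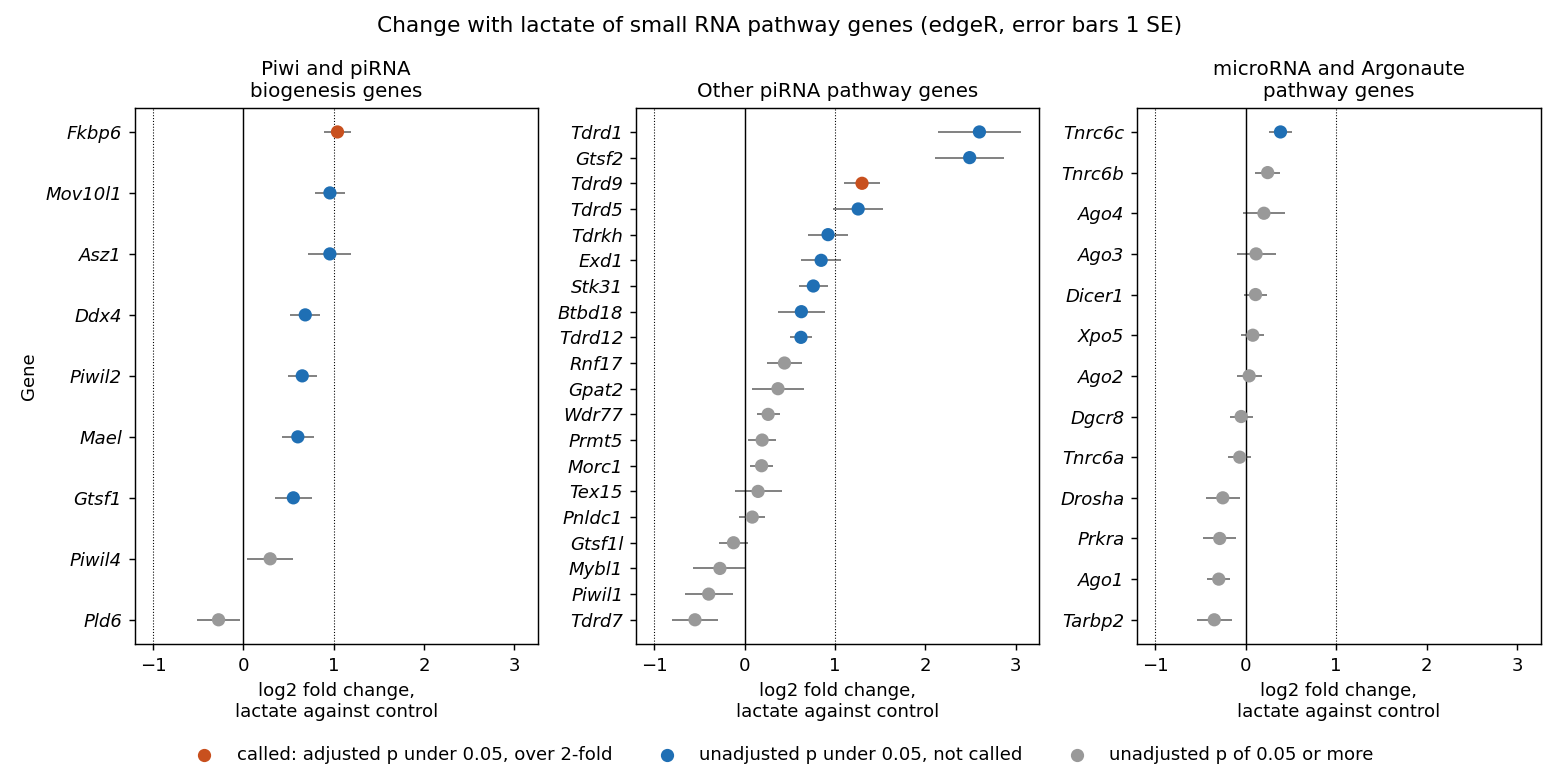
Log2 fold change of lactate against control with its standard error for the tested Piwi and piRNA biogenesis genes, other piRNA pathway genes and microRNA and Argonaute pathway genes, from edgeR on the counts; dotted lines mark a 2-fold change. Fkbp6 at 1.04 and Tdrd9 at 1.30 are the called genes, and the microRNA pathway genes lie between −0.35 and 0.38.

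Levels of different genes were compared per length, in FPKM, fragments scaled for transcript length and library size. Fkbp6 stood first in the control libraries with 23.8 ± 4.06 FPKM (SD, n = 2), at the 76.3rd percentile of the genes tested, and reached 50.5 ± 1.57 FPKM and the 88.2nd percentile in the lactate libraries. Pld6 followed with 7.46 ± 1.54 and Mael with 6.32 ± 0.389 FPKM, and the libraries of these 2 overlapped. Gtsf1 had 4.74 ± 0.375 FPKM. Ddx4, Mov10l1 and Piwil2 overlapped with each other at 3.26 ± 0.141, 3.25 ± 1.14 and 3.05 ± 0.339 FPKM. Asz1 at 1.61 ± 0.898, Piwil4 at 0.490 ± 0.0283 and Henmt1 at 0.170 ± 0.0849 FPKM formed the lower end.

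Fkbp6 made up 41.8% and 45.9% of the summed FPKM of the 10 genes in the control, and 55.6% and 53.2% with lactate. The Piwi genes were far below Ago1 and Ago2, which serve the microRNA pathway. In the control libraries Ago2 had 49.6 ± 1.29 and Ago1 25.8 ± 0.488 FPKM, while Piwil1 had 0.445 ± 0.134, near the level of Piwil4 and of Ago4 with 0.355 ± 0.0212. Ago3, with 3.04 ± 0.389 FPKM, was at the level of Piwil2.

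The per-length values moved differently from the counts for some genes, and RSEM also estimated an effective length in each library. The FPKM of Piwil2 was 2.81 and 3.29 in the control, and 5.94 and 6.29 with lactate, a wider gap than in its reads. The effective length of Piwil2 was 3978 and 3815 bases in the control, and 3126 and 3460 bases with lactate. Asz1 overlapped between the groups in FPKM, with 2.24 and 0.97 in the control and 2.0 and 2.93 with lactate. It did not overlap in reads or in RSEM expected counts, 33 and 23 against 46 and 51. The effective length of Asz1 was 936 and 1418 bases in the control, and 1408 and 1064 bases with lactate. Piwil4 had 0.47 and 0.51 FPKM in the control and 0.79 and 0.8 with lactate, a clearer separation than in its reads. Ddx4, with 3.16 and 3.36 against 5.64 and 5.29 FPKM, and Mael, with 6.59 and 6.04 against 11 and 9.80 FPKM, kept the separation seen in reads. Mov10l1, with 2.44 and 4.05 against 4.56 and 7.75 FPKM, was separated by a narrower gap than in reads. Its replicate 2 was the higher library in both groups, with effective lengths of 2481 and 2711 bases there against 3201 and 3300 in replicate 1. No per-length value of these genes was called by limma on log2(FPKM + 1), a fit that called 0 of all 20019 genes tested. All 10 were tested, and Ddx4, Mael, Piwil2 and Fkbp6 had an unadjusted p-value under 0.05 on the higher side. Of all genes, 1791 did so on the higher side and 1123 on the lower side.

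**Figure D3:**
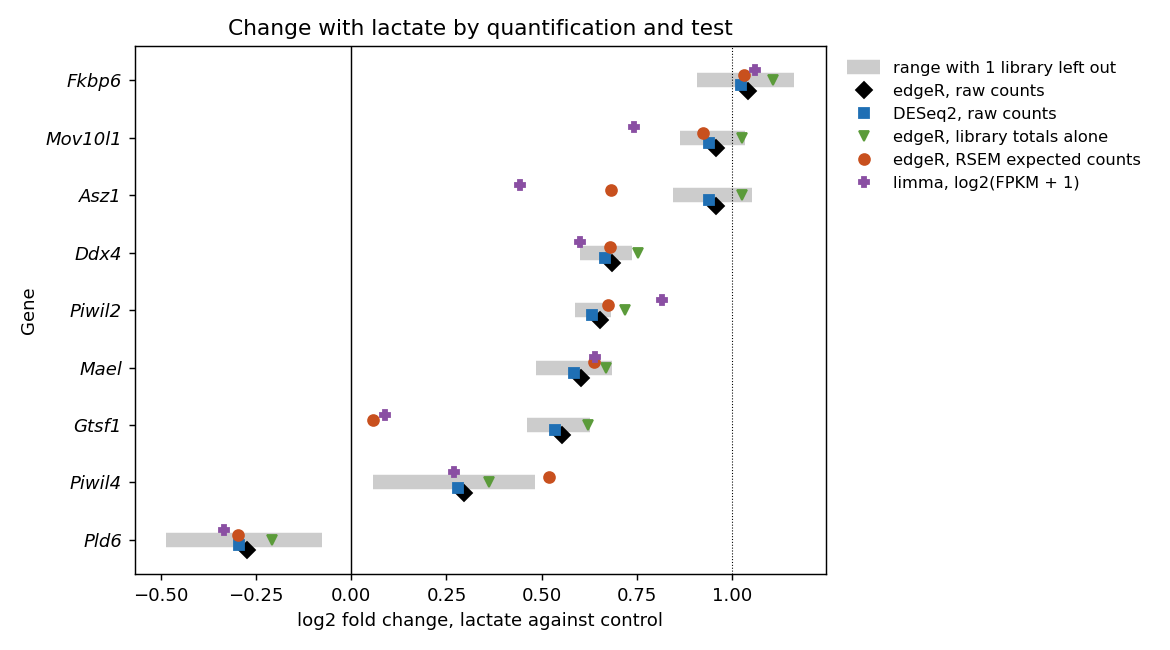
Log2 fold change of lactate against control for the 9 tested genes by quantification and test; grey bars span the values obtained when 1 library was left out. Gtsf1 shows the widest gap between the raw counts, 0.55, and the RSEM expected counts, 0.06, while the markers of Ddx4 and Mael lie close together.

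Other genes of the piRNA pathway were examined to place these values. Of 22 such genes, from tudor proteins to the PRMT5 methyltransferase that marks Piwi proteins, 20 were tested and Tdrd6 and Spocd1 had too few reads. Tdrd9 rose and was the 1 gene called higher, and 0 were called lower. An unadjusted p-value under 0.05 was reached by 9 on the higher side and 0 on the lower side, against 11.7% and 11.4% of all genes. The groups did not overlap in 15, with lactate above control in 12 and below it in Piwil1, Tdrd7 and Gtsf1l, against 27.0% and 25.9% of all genes. The median log2 fold change of the 20 was 0.41.

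Tdrd9, a helicase with a tudor domain that works with MIWI2, had 67 and 66 control reads against 166 and 181 lactate reads. Its log2 fold change was 1.30 ± 0.20 with an adjusted p-value of 0.0494 (edgeR), and leaving out control replicate 1 or control replicate 2 gave adjusted p-values of 0.101 and 0.0654. Tdrd1, a tudor protein that binds MILI, had 3 and 9 control reads against 32 and 46 lactate reads, and its log2 fold change was 2.60 ± 0.46 (adjusted p = 0.0559, edgeR). DESeq2 called it at an adjusted p-value of 0.0205. Gtsf2, a relative of Gtsf1, had 9 and 7 against 56 and 40 reads and a log2 fold change of 2.49 ± 0.38 (adjusted p = 0.0506, edgeR), but is listed at 0 FPKM in every library, so its counted reads are uncertain. Tdrd5, a nuage tudor protein, had a log2 fold change of 1.26 ± 0.28 (adjusted p = 0.0747, edgeR).

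The microRNA and Argonaute genes served as a comparison from the small RNA pathway that all cells use. Of the 13, all tested, 0 were called by edgeR or DESeq2. In edgeR 1 had an unadjusted p-value under 0.05 on the higher side and 0 on the lower side, against 11.7% and 11.4% of all genes. That gene was Tnrc6c, with a log2 fold change of 0.38 ± 0.12 (adjusted p = 0.145, edgeR). The log2 fold changes of the 13 fell on both sides of 0, with 7 higher and 6 lower and a median of 0.04. The groups did not overlap in 5 with lactate above control, Ago4, Dicer1, Xpo5, Tnrc6b and Tnrc6c. They did not overlap in 3 with lactate below, Ago1, Prkra and Tnrc6a, against 27.0% and 25.9% of all genes. Relatives of the Piwi pathway proteins that act in other cells were examined as well, in a list that shares the Argonautes with the microRNA list and Gtsf1l with the other piRNA pathway genes. Among Ddx3x, Mov10, Fkbp4, Fkbp5, Fkbp8, the 4 Argonautes and Gtsf1l, 0 were called by edgeR or DESeq2. Ddx3x alone had an unadjusted p-value under 0.05 in edgeR, on the higher side, against 11.7% of all genes. The groups did not overlap in 2 with lactate above control, Ddx3x and Ago4. They did not overlap in 5 with lactate below, Mov10, Fkbp4, Fkbp8, Ago1 and Gtsf1l, against 27.0% and 25.9% of all genes. Mov10, the widely expressed relative of Mov10l1, had a log2 fold change of −0.15 ± 0.13 and Fkbp4 of −0.44 ± 0.19, with adjusted p-values of 0.535 and 0.226 (edgeR).

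Promoters were compared in windows of 300 bases, 250 before and 50 after the most upstream RefSeq start site (GRCm38.p6). A window was found for 9 of the 10 genes, Piwil2 being the exception. The E-box CACGTG, which reads the same on both strands, was present in 5 of the 9, those of Fkbp6, Mov10l1, Mael, Ddx4 and Pld6. It was present in 7.24% of all 27025 windows, in 7.91% of those of protein-coding genes and in 11.3% of those of protein-coding genes with at least 11 CpG, the lowest count among the 9. The 9 windows had a median of 20 CpG, against 7 in all windows, 13 in those of protein-coding genes, 18 in those of the other piRNA pathway genes and 37 in those of the microRNA and Argonaute genes. Fkbp6 held the E-box at 2 positions, as 0.614% of all windows did. Of the other piRNA pathway genes 5 of 15 windows held it, Piwil1, Stk31, Tdrd1, Tdrd9 and Wdr77, and of the microRNA and Argonaute genes 0 of 12. The E2F-like element GCGGGA or TCCCGC, a match on either strand, was present in Ddx4 and Mael, 2 of the 9. It was present in 20.1% of all windows, in 42.3% of the protein-coding windows with at least 11 CpG and in 9 of the 12 microRNA and Argonaute windows. These matches describe letters in a window and not binding.

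The E-boxes that lie upstream of the annotated genes are shown with 30 bases each, 5′ to 3′ on the gene's strand and from RefSeq, because they are the sequence feature that most of the windows share. Capitals mark CACGTG. The pieces lie at chr5:135350128-135350157 and chr5:135350064-135350093 for Fkbp6, chr15:88982744-88982773 for Mov10l1, chr1:166238950-166238979 for Mael and chr11:59787673-59787702 for Pld6. The first base of the motif stood at −101 and −37 from the start site in Fkbp6, −246 in Mov10l1, −223 in Mael and −33 in Pld6. The match of Ddx4, at −29, lies inside the span of the gene in GENCODE and is not printed.
Fkbp6 distal: tgcgcctgccatCACGTGtgcagcgcgtgc
Fkbp6 proximal: gcgtctatcgatCACGTGccgtttctctcg
Mov10l1: ccttCACGTGctaaccgccaacctctcgtg
Mael: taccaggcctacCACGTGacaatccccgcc
Pld6: ggggcgggctggCACGTGttgggcgcgcaa
The bases beside the motif differed from gene to gene. The genes with an E-box had log2 fold changes of 1.04 (Fkbp6), 0.96 (Mov10l1), 0.69 (Ddx4), 0.60 (Mael) and −0.27 (Pld6). The tested genes with a window and no E-box had 0.96 (Asz1), 0.55 (Gtsf1) and 0.30 (Piwil4). A relation between the motif and the change was not tested.

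The 250 bases before the start sites of Fkbp6 (chr5:135350045-135350294, minus strand) and Asz1 (chr6:18109062-18109311, minus strand) are given as examples of a window with 2 E-boxes and one with none, with the same capitals and source.
Fkbp6: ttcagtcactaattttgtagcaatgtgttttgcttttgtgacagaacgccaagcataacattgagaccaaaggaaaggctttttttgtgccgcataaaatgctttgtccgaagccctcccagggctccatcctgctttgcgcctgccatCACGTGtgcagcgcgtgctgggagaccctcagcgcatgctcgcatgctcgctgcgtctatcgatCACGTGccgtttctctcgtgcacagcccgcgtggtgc
Asz1: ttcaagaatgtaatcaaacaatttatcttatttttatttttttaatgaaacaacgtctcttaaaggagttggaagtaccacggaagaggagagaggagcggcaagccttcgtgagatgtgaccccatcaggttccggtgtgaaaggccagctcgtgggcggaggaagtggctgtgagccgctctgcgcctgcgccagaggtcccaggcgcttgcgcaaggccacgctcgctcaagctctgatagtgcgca

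**Figure D4:**
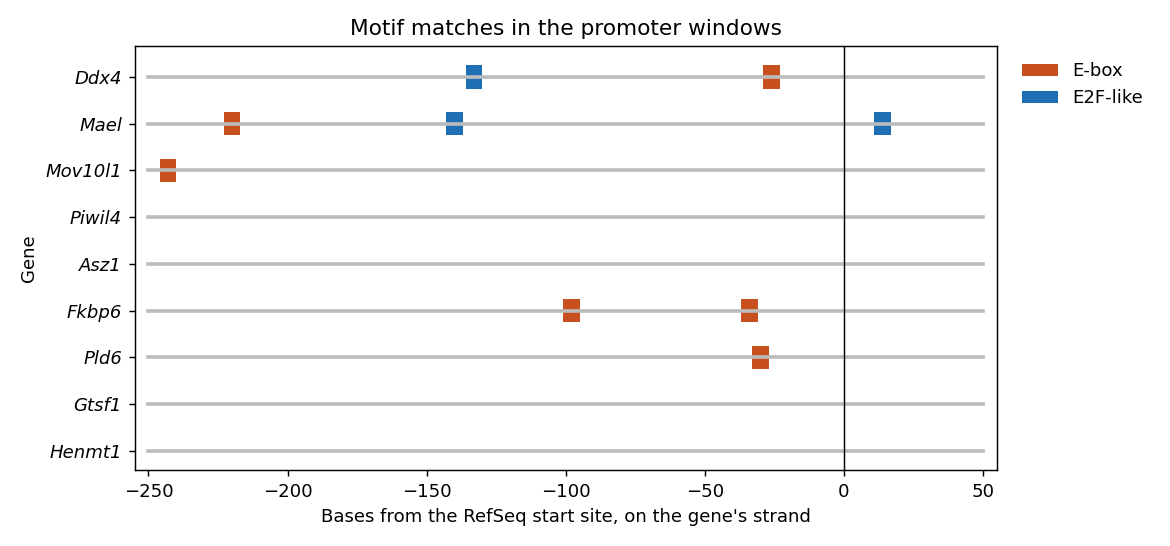
Position of E-box and E2F-like matches in the 300-base promoter windows of the 9 genes with a RefSeq window, in bases from the start site on the gene's strand. E-boxes appear in Ddx4, Mael, Mov10l1, Fkbp6 and Pld6, and only Fkbp6 holds 2.

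The transcripts that the pathway is known to silence were measured in the same libraries, as counts per transposable element family. All 6 L1 families with a name starting in L1Md, taken by name and not by age, were tested together with the genes. Of these 0 were called in edgeR, against 0.796% of all genes and families in either direction. An unadjusted p-value under 0.05 was reached by 0, against 22.2%. L1Md_A had 137823 and 95886 control reads against 107708 and 68642 lactate reads. The groups overlapped and replicate 1 was the higher library in both, with a log2 fold change of −0.49 ± 0.32 (adjusted p = 0.421, edgeR). L1Md_T and L1Md_Gf had log2 fold changes of −0.18 ± 0.31 and −0.12 ± 0.20.

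Of 25 IAP families all but IAPEY5_LTR were tested, which left 24. Of these 0 were called in edgeR, against 0.796% of all genes and families in either direction. An unadjusted p-value under 0.05 was reached by 4, split between the directions, against 22.2% in either direction. The log2 fold change was 0.80 ± 0.13 for IAPEY3-int and 0.90 ± 0.18 for IAPEY2_LTR, with adjusted p-values of 0.0550 and 0.0665. It was −0.97 ± 0.18 for IAPEy-int and −0.51 ± 0.20 for IAP1-MM_I-int, with adjusted p-values of 0.0600 and 0.206. IAPEz-int, the internal part of the abundant IAP elements, stood at 758.2 and 758.8 CPM in the control, and 738.4 and 713.0 CPM with lactate, a log2 fold change of −0.06 ± 0.14. The median over the 24 was 0.01, the same as that of all genes to 2 decimals.

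**Figure D5:**
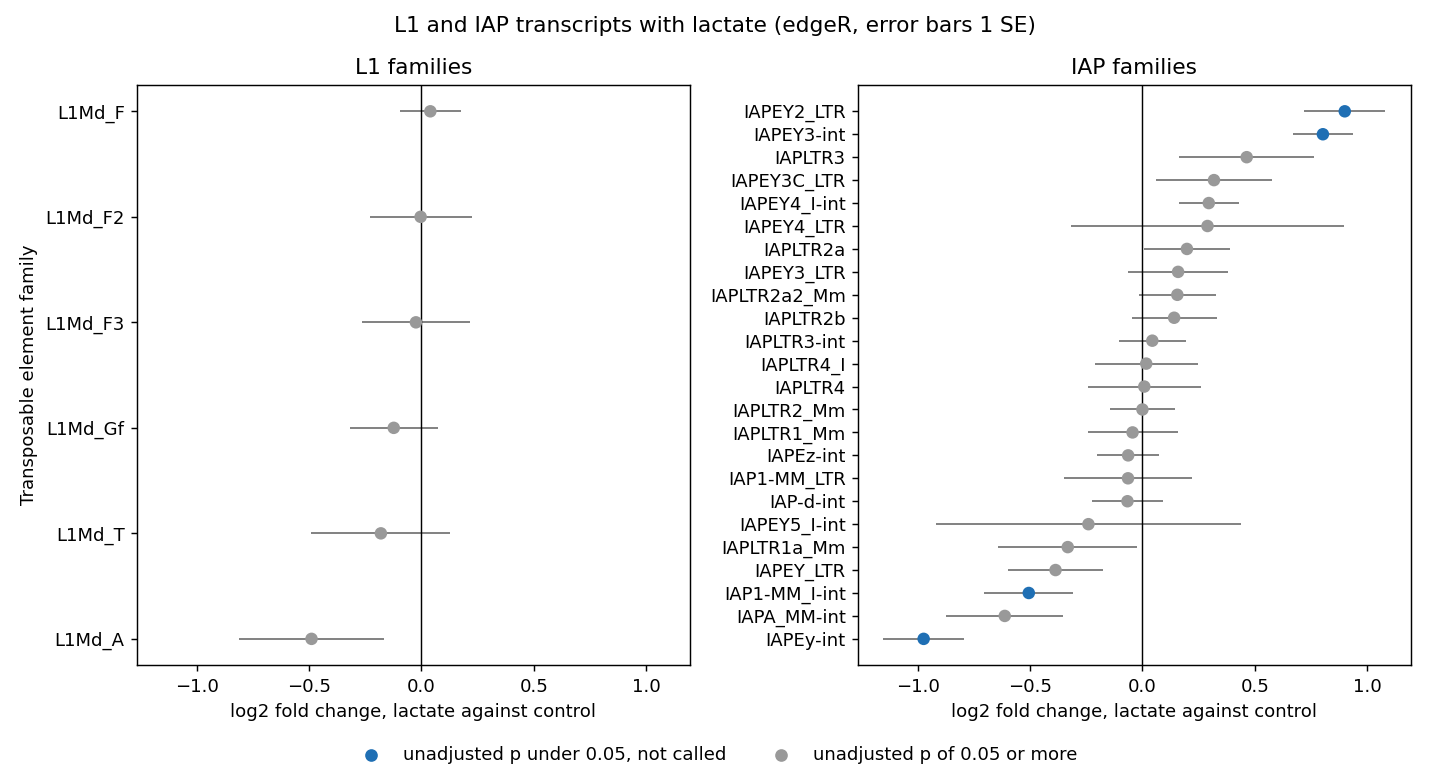
Log2 fold change of lactate against control with its standard error for the 6 L1 and 24 IAP families tested, from edgeR on genes and families together. No family was called, and the L1 values lie between −0.49 and 0.04.

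Markers of other cells that the culture could hold were set beside these values. Of 10 germ cell markers 9 were tested and 0 were called by edgeR, while DESeq2 called Dnd1 lower. In edgeR, Prdm1, Dppa3, Dazl and Sycp3 had an unadjusted p-value under 0.05 on the higher side and Prdm14 and Dnd1 on the lower side. Of all genes 11.7% and 11.4% did so. The summed level of the 10 was 538 to 607 CPM in the control and 519 to 621 CPM in the lactate libraries. Kit made the largest part of this sum, with 370 and 337 CPM in the control and 320 and 262 CPM with lactate. The sum therefore says little about the other markers. Nanos2 was at 0 in all but lactate replicate 2, where it had 2 reads. Of 10 markers of 2-cell-like cells, a rare state in ESC cultures, 6 were tested and all had positive log2 fold changes, with a median of 1.32. edgeR called 0 of them, while DESeq2 called Zscan4c, Zscan4d and Zscan4f. Zscan4a, Zscan4c, Zscan4d, Zscan4f and Usp17la had an unadjusted edgeR p-value under 0.05 on the higher side, against 11.7% of all genes. The 10 markers had a summed level of 13.2 to 14.9 CPM in the control and 29.9 to 39.1 CPM in the lactate libraries, and none was at 0.

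Primitive endoderm markers were also higher in sum, at 14.1 to 15.8 CPM in the control and 19.4 to 26.7 CPM in the lactate libraries. Of the 6, 4 were tested and 0 were called by edgeR or DESeq2. Gata4 and Pdgfra had an unadjusted edgeR p-value under 0.05 on the higher side, against 11.7% of all genes. Feeder fibroblast markers had a summed level of 426 to 615 CPM in the control and 427 to 486 CPM in the lactate libraries. Of the 12, 11 were tested and 0 were called by edgeR or DESeq2. An unadjusted edgeR p-value under 0.05 was given to Pdgfrb on the higher and Col3a1 on the lower side, against 11.7% and 11.4% of all genes. The part of these cells in the values of the Piwi pathway genes was not tested.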

How the data were processed

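The authors trimmed the reads with cutadapt 1.16, aligned them to mm10 with STAR and deposited raw read counts per gene and per transposable element family, with the GENCODE annotation of the mouse. The deposited RSEM files hold expected counts, TPM and FPKM per gene and library, where TPM was not tested here. The RSEM version, the strand setting and the program that counted transposable elements are not given in the sources used here.

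The raw counts of genes were tested in R 4.3.3 with edgeR 4.0.16 (filterByExpr by group, TMM factors, quasi-likelihood test, treatment as the only term) on the 2 control and 2 lactate libraries, with Benjamini-Hochberg adjustment over all genes. Genes were called at an adjusted p under 0.05 and more than 2-fold. The study's own methods used DESeq2 at the same limits. DESeq2 1.42.0, rounded RSEM expected counts in edgeR, and limma 3.58.1 on log2(FPKM + 1) and log2(FPKM + 0.1), for genes with a mean FPKM above 0.1, were alternatives, next to other normalizations, filters, a replicate term and leaving out each library. Transposable element families were fitted together with the genes, with TMM factors of the genes. Scripts were tested on simulated data. CPM were scaled by TMM factors. Each library was counted as 1 replicate. Libraries of a group differed by more than sampling noise, with a chi-square per degree of freedom of 32.2 in the control and 31.4 in the lactate group. This value cannot tell separate cultures from technical differences.

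Coordinates are from a GENCODE annotation of GRCm38, the assembly of mm10, and promoter sequences from RefSeq. All 10 genes of the group were named with their values. From the other lists, genes called or, up to 4 a list, with the largest change at an unadjusted p under 0.05 were named, together with the genes behind small counts. The genes and lists were chosen with earlier results of these data known, so they are no independent evidence of a direction.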

Additional observations from a re-analysis of the deposited data

How the results depend on the processing

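The median log2 fold change of the 9 tested genes stayed between 0.60 and 0.72 in the 17 alternatives, and none of the 9 genes changed its direction in any of them. The call of Fkbp6 was less stable. The number of Piwi pathway genes called higher was 0 without the filter on low counts (Fkbp6 at a log2 fold change of 1.00, adjusted p = 0.00158, edgeR). It was 0 with RSEM expected counts, where Fkbp6, Mov10l1, Ddx4, Piwil2 and Mael had an unadjusted p under 0.05 on the higher side. Of all genes 1693 of 15595 did so in that fit. With limma on either FPKM scale it was 0, with 4 genes each at this limit, against 1791 and 1819 of all 20019. Without control replicate 1 the log2 fold change of Fkbp6 was 0.91, under the fold limit. On the higher side the same limit was reached by 1935 of 17117 genes with at least 10 counts in every library. With transposable elements included it was reached by 2106 of 18661. The other piRNA pathway genes called higher numbered 2 with upper-quartile factors or library totals alone (Tdrd9 and Gtsf2), 3 with DESeq2 (with Tdrd1), 4 without the filter (with Tdrd5) and 0 with at least 10 counts in every library (7 at an unadjusted p under 0.05 on the higher side), RSEM expected counts (7), limma on either scale (8 each) or transposable elements included (8), and 0 to 5 with 1 library left out (at most Gtsf2, Tdrd1, Tdrd5, Tdrd9 and Tdrkh).

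Over all genes, 103 were called higher and 65 lower. The counts were 190 and 168 with DESeq2, 482 and 325 without the filter, 27 and 17 with RSEM expected counts, and 0 and 0 with limma on either scale, where 1791 and 1123 genes (log2(FPKM + 1)) and 1819 and 1135 genes (log2(FPKM + 0.1)) had an unadjusted p under 0.05. Library totals alone gave 40 lower, so that 73.0% of calls were higher against 61.3%. Leaving out 1 library gave 45 to 502 higher and 39 to 367 lower, the lowest without control replicate 1 and the highest without lactate replicate 2.

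The labels give both groups replicate numbers 1 and 2 without saying what a number shares. Deviations of same-numbered libraries from their group means had a correlation of 0.686. With the replicate number as a block, 761 genes were called higher and 395 lower, 4 of the other piRNA pathway genes were called higher (Tdrd1, Gtsf2, Tdrd9 and Tdrd5), and Fkbp6 remained the 1 Piwi pathway gene called (adjusted p = 5.70e-09, edgeR). The block took 7 of the 9 Piwi pathway genes under an adjusted p of 0.05, all but Piwil4 and Pld6, where 8297 of the 18661 genes passed that limit; the adjusted p of the other 6, each under 2-fold, was 7.35e-07 for Mov10l1 to 0.0134 for Gtsf1. The block fit estimates a baseline, a replicate effect and a treatment effect from 4 libraries, so little spread is left to measure its error. Its small p-values show a dependence on the model and are no measure of the strength of a change. The cause of the differences between the fits with and without the block was not tested. Depth limited the values of Asz1, Piwil4, Gtsf1 and Henmt1 most, with at most 72, 61, 102 and 11 reads in a library.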
